A study of Mus musculus with 15 samples.

Results

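The 10 enzymes of bile acid synthesis described here were followed through the livers of mice on 5 feeding regimes. The set was taken from the deposited gene table by symbol, and all 10 of 10 symbols were found among 16809 genes: Cyp7a1, Cyp8b1, Cyp27a1, Cyp7b1, Cyp39a1, Hsd3b7, Akr1d1, Cyp2c70, Baat and Slc27a5. Sequencing covered liver RNA of 5 groups with 3 libraries per group, 15 in all, every one labelled as wild type and taken after 6 weeks of feeding. Control mice ate standard feed. Model mice, the hyperlipidemic group, ate a feed made of standard components (78.8%) with cholesterol (1%), lard (10%), dried egg yolk (10%) and sodium cholate (0.2%), the last of which is itself a bile acid salt. The 3 remaining groups received a high-fat diet, assumed to match that of the model, and were gavaged with a flavonol: quercetin (200 mg/kg/day), myricetin (75 mg/kg/day) or kaempferol (100 mg/kg/day). The labels give no strain, sex, time of collection or fasting state, and do not say whether control and model mice were gavaged. Whether each library stands for its own mouse is not stated either, so p-values measure only how far libraries scatter, which may be technical.

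Bile acids are made from cholesterol in hepatocytes, by a classic route that starts with Cyp7a1 and an alternative route that starts with side-chain oxidation by Cyp27a1 and continues with Cyp7b1. Hsd3b7 and Akr1d1 then remodel the sterol rings, Cyp8b1 directs intermediates to cholic acid, Cyp2c70 makes the muricholic acids particular to mice and rats, and Slc27a5 and Baat attach taurine or glycine. Bile acids returning from the gut repress the first steps through the nuclear receptor Fxr (Nr1h4) and its target Shp (Nr0b2), and Cyp7a1 is also known for a strong daily rhythm.

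Levels of one gene are given below as CPM, read counts brought to a common library size with TMM factors. A gene passed where edgeR's quasi-likelihood p, adjusted over the 12658 genes tested by Benjamini-Hochberg, was under 0.05. Changes are log2 fold changes ± SE with n = 3 libraries per group. Library totals lay between 15.9 and 17.6 M expected counts, and the lowest expected count of any of the 10 genes in any library was 79, for Cyp39a1, so all 10 genes were tested. The defining hepatocyte markers, such as albumin, were abundant in every library, with 71963 to 121891 CPM summed over 10 markers. In such bulk RNA, fewer cells of a type and less RNA per cell cannot be told apart.

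On the per-length scale of the deposited TPM values, averaged over 15 libraries, the conjugating enzyme Slc27a5 had the highest level at 518 TPM. Cyp2c70 followed at 506 TPM, Hsd3b7 at 417 TPM, Cyp27a1 at 344 TPM and Cyp8b1 at 282 TPM. Baat stood at 211 TPM, Cyp7b1 at 171 TPM and Akr1d1 at 66.1 TPM, and the lowest were Cyp7a1 at 31.0 TPM and Cyp39a1 at 10.9 TPM. The rate-limiting enzyme of the classic route was thus the second lowest of the 10 transcripts. The 2 lowest genes were also among the most variable: the ratio of the highest to the lowest library was 14.02 for Cyp39a1, 7.96 for Cyp7b1, 7.63 for Cyp7a1, 5.13 for Cyp8b1 and 3.68 for Cyp2c70. For the other 5 it lay between 1.38 for Cyp27a1 and 2.26 for Akr1d1.

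**Figure D1:**
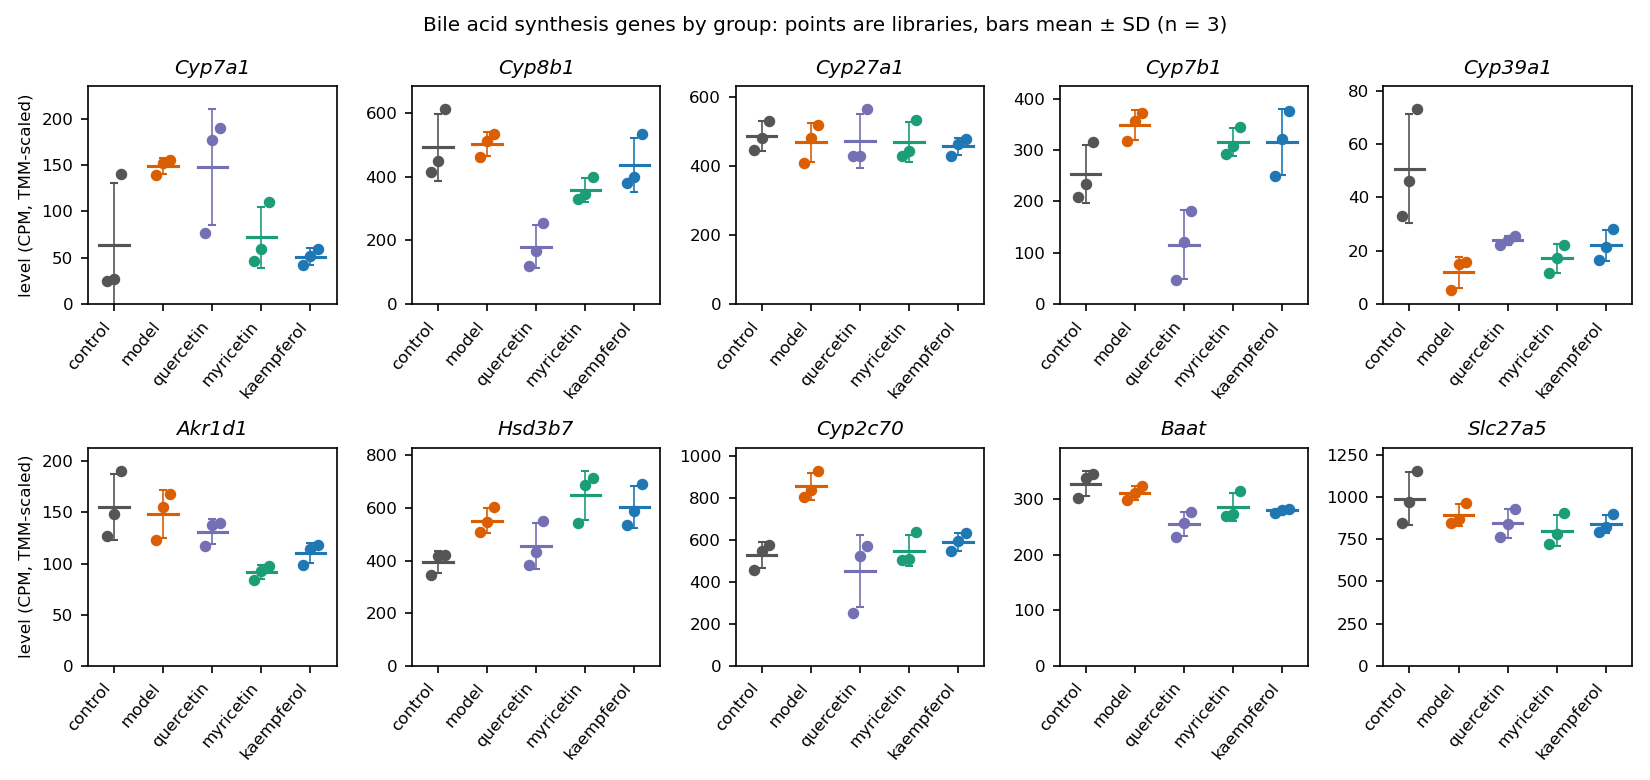
Level of each of the 10 genes (y axis, CPM from 0) in the 5 groups (x axis), with 1 point per library, a horizontal bar for the mean and a vertical bar for the SD of n = 3 (the control bar of Cyp7a1 runs below 0 and ends at the axis). All quercetin points of Cyp8b1 and Cyp7b1 lie below the points of the other groups, the control points of Cyp39a1 lie above all others, and 1 control library of Cyp7a1 sits at 140.3 CPM beside 27.0 and 24.9 CPM.

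The short stretches of DNA before the start of 3 genes are shown because these genes passed between high-fat groups and have an entry in the RefSeq promoter table of GRCm38.p6 (250 bases before the start and 50 after it, written 5′ to 3′ on the gene's strand). Entries were found for 5 of the 10 genes, the other 2 being Cyp27a1 and Hsd3b7; Cyp7a1, Cyp7b1, Cyp39a1, Baat and Slc27a5 had none. Cyp8b1 lies at chr9:121916256-121916555 on the minus strand, Cyp2c70 at chr19:40187237-40187536 on the minus strand and Akr1d1 at chr6:37529923-37530222 on the plus strand. For Cyp8b1 and Cyp2c70 the start is the 5′ edge of the annotated gene. For Akr1d1 the start lies inside the annotated gene, which begins at 37529978. Capitals mark the motifs found.
Cyp8b1: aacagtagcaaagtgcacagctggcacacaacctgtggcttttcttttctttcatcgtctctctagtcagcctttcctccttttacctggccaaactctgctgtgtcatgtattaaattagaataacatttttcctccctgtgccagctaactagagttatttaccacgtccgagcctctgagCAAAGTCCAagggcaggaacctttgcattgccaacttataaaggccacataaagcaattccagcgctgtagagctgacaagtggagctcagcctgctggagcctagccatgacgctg
Cyp2c70: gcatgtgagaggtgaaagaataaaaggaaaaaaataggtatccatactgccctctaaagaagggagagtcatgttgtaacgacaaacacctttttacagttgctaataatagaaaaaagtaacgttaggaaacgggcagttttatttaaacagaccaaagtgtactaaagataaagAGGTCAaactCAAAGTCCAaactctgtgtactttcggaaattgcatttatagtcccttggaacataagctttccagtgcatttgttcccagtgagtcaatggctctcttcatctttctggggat
Akr1d1: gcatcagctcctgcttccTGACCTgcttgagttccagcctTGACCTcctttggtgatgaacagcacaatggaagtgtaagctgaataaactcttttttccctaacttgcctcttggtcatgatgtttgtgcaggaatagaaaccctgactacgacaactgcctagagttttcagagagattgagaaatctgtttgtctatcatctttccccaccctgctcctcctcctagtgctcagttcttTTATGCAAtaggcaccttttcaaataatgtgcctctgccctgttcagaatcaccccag
Both strands were searched for the E-box CACGTG, the nuclear receptor half-site AGGTCA, its longer form AAGGTCA, whose matches are also half-site matches, and the D-box TTATGNAA. The element CAAAGTCCA, of the type bound by Hnf4a, was added after the sequences had been read. Cyp8b1 and Cyp2c70 both hold CAAAGTCCA, at -67 to -59 and at -64 to -56 from the start, and 0.475% of the 32851 promoters in the table hold it. Cyp2c70 also has AGGTCA at -74 to -69, and Akr1d1 has it on the reverse strand, as TGACCT, at -232 to -227 and at -210 to -205. AGGTCA occurs in 16.3% of the promoters. Akr1d1 further has the D-box TTATGCAA at -8 to -1, and Cyp27a1 has the D-box TTATGAAA at -60 to -53, a motif held by 3.38% of the promoters. Both D-boxes lie inside the annotated gene. The window of Cyp27a1 begins at 74713285, after the annotated beginning of that gene at 74713148. The E-box, held by 7.15%, and AAGGTCA, held by 4.72%, were in none of the 5 promoters, and Hsd3b7 had none of these motifs. These matches describe letters only.

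Cyp7a1, the rate-limiting enzyme of the classic route (chr4:6265612-6275632), was highest in the model and with quercetin, but no comparison passed. Control levels were 140.3, 27.0 and 24.9 CPM in replicates 1, 2 and 3, and model levels were 152, 156 and 139 CPM in replicates 1, 2 and 5. Quercetin levels were 190.1, 177 and 76.3 CPM in replicates 2, 5 and 8. With myricetin they were 59.4, 47.0 and 109.6 CPM in replicates 5, 7 and 8, and with kaempferol 41.7, 51.8 and 59.7 CPM in replicates 3, 5 and 8. All kaempferol and myricetin libraries lay below all model libraries, the quercetin libraries straddled the model, and control replicate 1 stood with the model libraries, away from the other control libraries.

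The model differed from the control in Cyp7a1 by 1.21 ± 0.63 (adjusted p = 0.293, edgeR), and without control replicate 1 the change was 2.52 (adjusted p = 0.0106). Quercetin against the control was likewise 1.20 ± 0.63 (adjusted p = 0.242) with all libraries and 2.51 (adjusted p = 0.00675) without control replicate 1. The 4 high-fat groups averaged were at 0.57 ± 0.51 (adjusted p = 0.488) and, without control replicate 1, at 1.87 (adjusted p = 0.0105). Each of these changes passed only there, in 1 of 12 alternatives for the model, 1 of 12 for quercetin and 1 of 20 for the average. Without control replicate 2 their adjusted p-values were 0.601, 0.51 and 0.875 (edgeR). Control replicate 1 also had 43.7 CPM of the clock gene Per2, against 113 and 93.0 CPM in control replicates 2 and 3. Other clock genes were close together in the control, such as Clock at 48.4 ± 0.42 CPM and Cry1 at 46.9 ± 2.14 CPM (SD, n = 3). Some scattered, such as Npas2 at 5.39 ± 4.33 CPM. The part of the clock in the Cyp7a1 level of control replicate 1 was not tested. Against the model, the change was -1.54 ± 0.63 with kaempferol (adjusted p = 0.366) and -1.05 ± 0.62 with myricetin (adjusted p = 0.561). A fit to the model and kaempferol libraries alone, in which the spread of Cyp7a1 in the other groups plays no part, gave kaempferol an adjusted p of 0.00359, and the authors' deposited table gives it a log2 fold change of -1.55 with a q value of 6.4e-24. Between flavonol groups, quercetin and kaempferol differed by 1.53 ± 0.63 (95% interval 0.13 to 2.93, adjusted p = 0.188) and quercetin and myricetin by 1.04 ± 0.62 (adjusted p = 0.555).

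Cyp8b1 (chr9:121914356-121916305), whose hydroxylation of sterol intermediates makes cholic acid, fell with quercetin. Its levels were 611, 449 and 415 CPM in the control and 532, 459.9 and 512 CPM in the model. With quercetin they were 119, 253 and 168 CPM, with myricetin 399, 329.9 and 344 CPM, and with kaempferol 398, 533 and 379 CPM. The highest quercetin library was below the lowest library of every other group, and the myricetin libraries were all below the model libraries. Quercetin fell by 1.48 ± 0.23 on the log2 scale against the model, a level 2.79-fold lower (adjusted p = 0.00178), and by 1.45 ± 0.23 against the control (adjusted p = 0.00199). Both passed in all 12 alternatives run for each, with adjusted p-values up to 0.0208 and 0.0374. Quercetin was also lower than kaempferol, at -1.28 ± 0.23 (95% interval -1.77 to -0.79, adjusted p = 0.00556). Against myricetin the difference was -0.99 ± 0.23 (95% interval -1.48 to -0.51), which did not pass with edgeR (adjusted p = 0.0635). It passed in 2 of 12 alternatives, with DESeq2 (adjusted p = 0.00142) and without quercetin replicate 5. Without myricetin replicate 5 its adjusted p was 0.238 (edgeR). The 4 high-fat groups averaged against the control were at -0.51 ± 0.17 (adjusted p = 0.055). This passed in 4 of 20 alternatives and did not in the other 16. It passed with DESeq2 (adjusted p = 0.0239) and without quercetin replicate 2 (0.0379), quercetin replicate 5 (0.00675) or kaempferol replicate 5 (0.042). Without control replicate 1 the adjusted p was highest, at 0.27 (edgeR). With myricetin against the model, the authors' deposited table gives Cyp8b1 a log2 fold change of -0.49 with a q value of 0.00743, and that pair did not pass here.

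The flavonols were given at different doses, so a test between 2 flavonol groups compares each compound together with its dose. It also takes in anything else that differed between the groups, and time of collection is not labelled. Of 19 clock genes, 16 passed for quercetin against kaempferol, 7 for quercetin against myricetin and 0 for myricetin against kaempferol. The part of clock phase in the enzyme differences below was not tested. The compounds share the flavonol skeleton and differ in the number of hydroxyl groups on 1 ring, fewest in kaempferol and most in myricetin. Of the 10 genes, quercetin against kaempferol gave 2 that passed, Cyp8b1 and Cyp7b1, both lower with quercetin, where 4.83% of all genes tested passed and 2.39% were lower. Quercetin against myricetin gave 0, where 0.798% of all genes passed. At an unadjusted edgeR p under 0.05 there were 4, and the share of all genes at that level was not counted. DESeq2 called 3, Cyp8b1, Cyp7b1 and Akr1d1, among 269 of 12653 genes that passed. Myricetin against kaempferol gave 0 with edgeR, where 0 of 12658 genes passed, and 0 with DESeq2, where 36 of 12653 passed. At an unadjusted edgeR p under 0.05 it also gave 0. The intervals of that last comparison remained wide for some genes, at -0.89 to 1.88 for Cyp7a1 and -0.77 to 0.77 for Cyp7b1, and were narrow for Baat, at -0.18 to 0.24.

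Cyp27a1 (chr1:74713148-74737897), the mitochondrial side-chain hydroxylase that opens the alternative route, was the steadiest of the 10. Its group means ran from 458 ± 25.2 CPM with kaempferol to 488 ± 42.7 CPM in the control (SD, n = 3), and all 15 libraries lay between 408 and 565 CPM. The ranges of all groups overlapped, and it passed in no comparison. For quercetin against the model, the 95% interval of its log2 change was -0.26 to 0.29.

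Cyp7b1 (chr3:18071944-18243890), which hydroxylates the oxysterols that Cyp27a1 supplies, fell with quercetin. It was at 316, 234 and 209 CPM in the control and at 317, 356 and 372 CPM in the model. Quercetin libraries held 47.2, 120.4 and 180.3 CPM, myricetin libraries 308, 345 and 292 CPM, and kaempferol libraries 322, 376 and 249 CPM. Every quercetin library was below every other library, and the quercetin libraries differed among themselves more than those of any other group (coefficient of variation 57.5%, against 8.21% in the model). Quercetin against the model fell by 1.59 ± 0.36, which is 3.00-fold lower (adjusted p = 0.022). The adjusted p rose past the threshold without model replicate 1 (0.0553), model replicate 2 (0.0679), model replicate 5 (0.0556) or quercetin replicate 5 (0.0695), with log2 changes between -2.06 and -1.21 over all 12 alternatives. Against kaempferol the difference was -1.44 ± 0.36 (adjusted p = 0.0434), which did not pass without quercetin replicate 5 (0.117) or any 1 kaempferol library (0.0658 to 0.116). Against myricetin it was -1.44 ± 0.36 (adjusted p = 0.112) and against the control -1.13 ± 0.36 (adjusted p = 0.0634).

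Cyp39a1 (chr17:43667372-43751431), a hydroxylase of side-chain-oxidised cholesterol and the scarcest of the 10, was lower on the high-fat diets. Control libraries held 32.9, 73.0 and 46.3 CPM and model libraries 14.9, 15.6 and 5.2 CPM. With quercetin the levels were 22.2, 25.5 and 24.0 CPM, with myricetin 11.7, 17.4 and 22.3 CPM, and with kaempferol 16.7, 21.5 and 28.0 CPM. Every high-fat library was below every control library. The model fell by 2.08 ± 0.40 against the control, which is 4.24-fold lower (adjusted p = 0.0193), and myricetin fell by 1.57 ± 0.39 (adjusted p = 0.0309). Kaempferol at -1.20 ± 0.39 (adjusted p = 0.0614) and quercetin at -1.09 ± 0.38 (adjusted p = 0.0892) did not pass. The 4 high-fat groups averaged fell by 1.48 ± 0.28 (adjusted p = 0.0054), and by 1.13 (adjusted p = 0.0561) without control replicate 2, the highest control library. The change in the model did not pass without control replicate 2 (0.0699), control replicate 3 (0.056), model replicate 1 (0.0511) or model replicate 5 (0.0503), and that with myricetin did not pass without control replicate 2 (0.12), control replicate 3 (0.0698), myricetin replicate 5 (0.104) or myricetin replicate 7 (0.0785). Against the model, Cyp39a1 was at 1.00 ± 0.40 with quercetin (adjusted p = 0.16), 0.88 ± 0.40 with kaempferol (adjusted p = 0.428) and 0.52 ± 0.40 with myricetin (adjusted p = 0.678), and none of these passed.

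**Figure D2:**
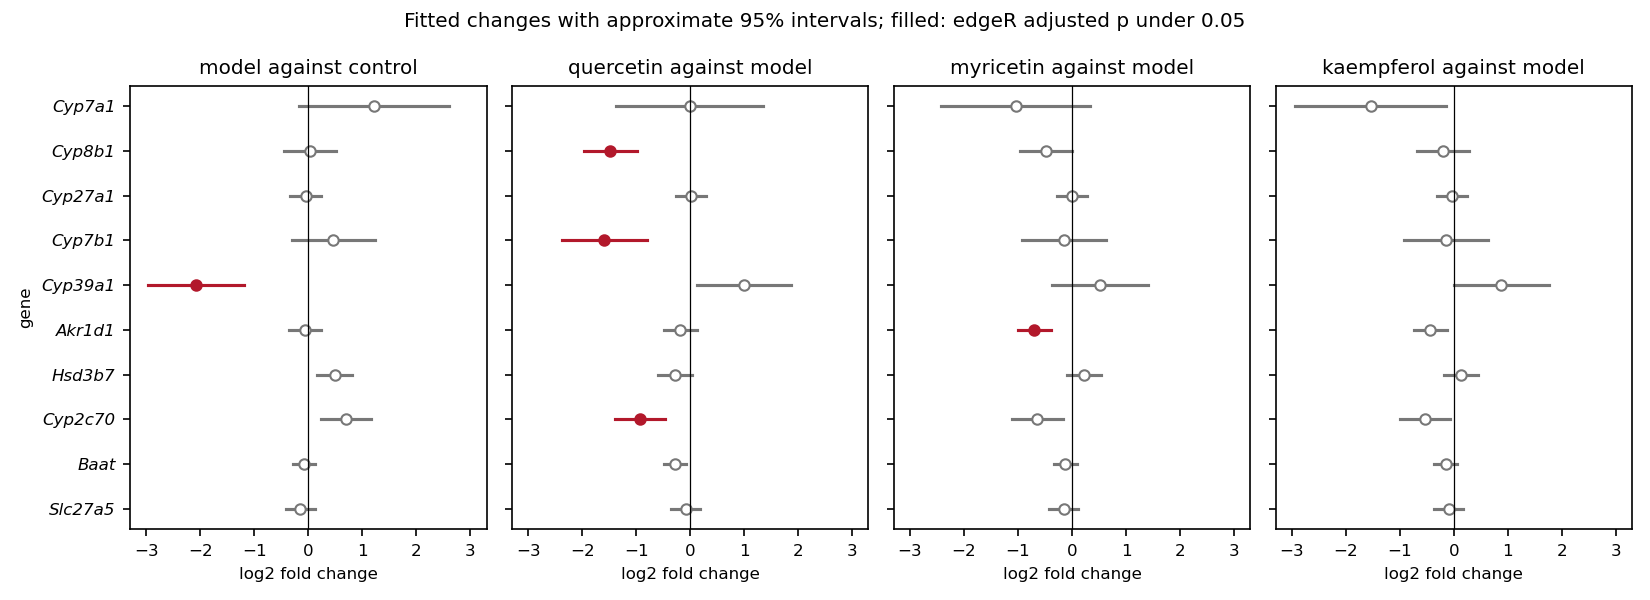
Fitted log2 fold changes (x axis) of the 10 genes (y axis) for the model against the control and for each flavonol against the model, with approximate 95% intervals over n = 3 libraries per group; filled points passed. Only Cyp39a1 passed for the model, Cyp8b1, Cyp7b1 and Cyp2c70 for quercetin and Akr1d1 for myricetin, and the interval of Cyp7a1 is the widest for the kaempferol comparison, from -2.94 to -0.14.

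Hsd3b7 (chr7:127800609-127803802), the dehydrogenase that acts on the ring after the first hydroxylation, was higher with myricetin and kaempferol than in the control. Control levels were 419.6, 346 and 419 CPM, model levels 546, 507 and 604 CPM, and quercetin levels 434, 381 and 551 CPM. Myricetin libraries held 687, 543 and 716 CPM and kaempferol libraries 534, 691 and 587 CPM. All model, myricetin and kaempferol libraries were above all control libraries, and quercetin overlapped the control. Myricetin rose by 0.72 ± 0.15 against the control (adjusted p = 0.00911) and kaempferol by 0.61 ± 0.15 (adjusted p = 0.0137). The 4 high-fat groups averaged rose by 0.50 ± 0.12 (adjusted p = 0.0119). Without control replicate 2, the lowest library, the adjusted p-values of these 3 changes were 0.0506, 0.0775 and 0.105. The number of genes passing over the whole table fell as well without it, from 1164 to 470, 1697 to 766 and 2062 to 675. Kaempferol also missed the threshold without kaempferol replicate 5 (0.0504). For the model against the control, the authors' deposited table gives a log2 fold change of 0.49 with a q value of 0.00283, and the pair did not pass here. Quercetin against myricetin was -0.51 ± 0.15 (adjusted p = 0.142).

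Akr1d1 (chr6:37529978-37574921), the reductase that bends the ring system into its bile acid shape, was lowest with myricetin. It was at 191, 148 and 127 CPM in the control and at 168, 155 and 123 CPM in the model. With quercetin it was at 139, 117 and 137 CPM, with myricetin at 93.1, 84.3 and 97.9 CPM, and with kaempferol at 114, 118 and 98.8 CPM. All myricetin libraries were below all libraries of the other 4 groups. Myricetin fell by 0.70 ± 0.15 against the model (adjusted p = 0.0487) and by 0.76 ± 0.15 against the control (adjusted p = 0.00567). Kaempferol fell by 0.50 ± 0.14 against the control (adjusted p = 0.0319). The change against the model was close to the threshold and did not pass without model replicate 1 (0.22), model replicate 2 (0.183), myricetin replicate 5 (0.0696), myricetin replicate 7 (0.202) or myricetin replicate 8 (0.117). Myricetin against the control passed whichever library was left out, while kaempferol did not pass without control replicate 1 (0.13), control replicate 2 (0.0701), kaempferol replicate 3 (0.0702) or kaempferol replicate 8 (0.106). The 4 high-fat groups averaged fell by 0.39 ± 0.11 (adjusted p = 0.0264), which did not pass without control replicate 1 (-0.22, adjusted p = 0.214) or control replicate 2 (adjusted p = 0.0813). Quercetin against myricetin was 0.52 ± 0.14 (adjusted p = 0.125 with edgeR and 0.0481 with DESeq2).

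Cyp2c70 (chr19:40153361-40187286), which makes muricholic acids from chenodeoxycholic and ursodeoxycholic acid, was highest in the model. Its expected counts, like those of the other 9 genes, were whole in every library (0% not whole, against 5.37% of the values over all genes). Control levels were 579, 549 and 459 CPM, and model levels 807, 838 and 931 CPM. Quercetin libraries held 573, 253 and 526 CPM, myricetin libraries 638, 509.8 and 504 CPM, and kaempferol libraries 594, 635 and 549.8 CPM. Every model library was above every other library, and quercetin replicate 5 was the lowest of the 15. The model against the control was 0.70 ± 0.22 (adjusted p = 0.0816), which passed with DESeq2 and in the fit to these groups alone. Quercetin fell by 0.93 ± 0.22 against the model (adjusted p = 0.0197), which did not pass without model replicate 2 (0.0552) or model replicate 5 (0.0598), and was -0.64 without quercetin replicate 5. Myricetin at -0.64 ± 0.22 (adjusted p = 0.243) and kaempferol at -0.53 ± 0.22 (adjusted p = 0.339) did not pass, although no library of either overlapped the model. The authors' deposited table calls Cyp2c70 in all 4 of its comparisons, with log2 fold changes of 0.71 for the model over the control, and -0.94, -0.65 and -0.54 for quercetin, myricetin and kaempferol over the model. Comparisons against the model share the same 3 model libraries.

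The enzymes of the last step, conjugation, differed little. Baat (chr4:49489416-49507915) is the transferase that joins bile acids to taurine or glycine. It was at 302, 337 and 345 CPM in the control and at 233, 257 and 276 CPM with quercetin, with no overlap in CPM. On the deposited TPM these 2 groups overlapped, at 212 to 255 in the control and 184 to 217 with quercetin. Quercetin fell by 0.36 ± 0.10 against the control (adjusted p = 0.0264), and this did not pass without control replicate 2 (0.0943), control replicate 3 (0.102), quercetin replicate 2 (0.107) or quercetin replicate 5 (0.0536). The other groups had means of 311 ± 12.5 CPM in the model, 286 ± 24.8 CPM with myricetin and 279.9 ± 3.74 CPM with kaempferol. Slc27a5 (chr7:12988346-12998192), the ligase that activates bile acids before they are joined, had group means from 801 ± 94.2 CPM with myricetin to 991 ± 156 CPM in the control, and passed in no comparison.

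Counted by comparison, 1 of the 10 genes passed for the model against the control, where 4.46% of all genes tested passed. Quercetin against the model gave 3 of 10, all lower, where 7.82% of all genes passed in either direction and 3.76% were lower. Myricetin against the model gave 1 of 10, where 0.395% passed. Kaempferol against the model gave 0 of 10 with edgeR, where 0.0395% passed, and 0 with DESeq2, where 197 of 12653 genes passed. At an unadjusted edgeR p under 0.05 there were 4, and the share of all genes at that level was not counted. The median log2 change of the 10 genes was -0.01 for the model against the control, -0.23 for quercetin, -0.15 for myricetin and -0.15 for kaempferol against the model, beside medians of -0.01, 0.01, 0.01 and 0.01 over all genes tested. In the authors' deposited table, 4 of the 10 had a q value under 0.05 for the model over the control. For quercetin, myricetin and kaempferol over the model there were 3, 3 and 2. The share of all genes under that q value was not counted.

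Against the control, quercetin gave 2 of 10 (11.6% of all genes passed), myricetin 3 of 10 (9.20%) and kaempferol 2 of 10 (13.4%). The 4 high-fat groups averaged gave 3 of 10, with Hsd3b7 higher and Cyp39a1 and Akr1d1 lower, where 16.3% of all genes passed, 7.79% higher and 8.50% lower. A test for any difference among the 4 high-fat groups called Cyp8b1 (adjusted p = 0.0082) and Akr1d1 (adjusted p = 0.0312), 2 of 10 beside 4.87% of all genes. The same test over all 5 groups called 5 of 10, Cyp8b1, Cyp39a1, Akr1d1, Hsd3b7 and Cyp2c70, beside 16.1% of all genes. When groups were ordered by mean level, neighbouring groups without overlap were found once each for Cyp8b1 (myricetin above quercetin), Cyp7b1 and Cyp39a1 (control above quercetin), Akr1d1 (kaempferol above myricetin) and Cyp2c70 (model above kaempferol). For Cyp7a1, Cyp27a1, Hsd3b7, Baat and Slc27a5 every neighbouring pair of groups overlapped. The groups were ordered by these same levels, and the share of all genes with such gaps was not counted. These gaps therefore only describe the 10 genes.

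With only the libraries of the 2 groups compared in the fit, several of these changes kept their size and did not pass. This held for Cyp39a1 in the model (adjusted p = 0.0897) and with myricetin (0.0593) against the control, for Cyp7b1 (0.145) and Cyp2c70 (0.116) with quercetin against the model, and for Cyp8b1 (0.0672) and Cyp7b1 (0.221) with quercetin against kaempferol. It also held for Baat with quercetin (0.0809) and Akr1d1 with kaempferol (0.0673) against the control. With no filter on low counts, Cyp7b1 with quercetin against kaempferol (0.0726) and Cyp39a1 with myricetin against the control (0.0509) did not pass.

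**Figure D3:**
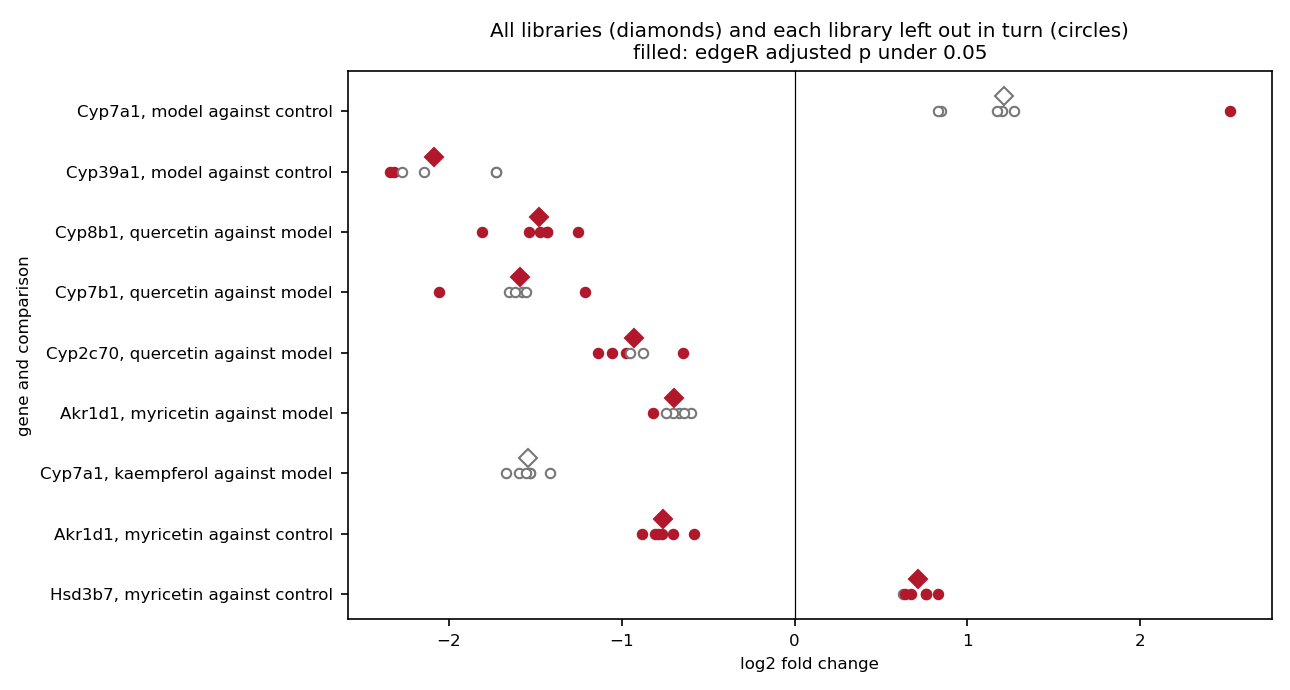
Log2 fold change (x axis) of 9 pairs of gene and comparison (y axis) with all libraries (diamonds) and with each library of the groups compared left out in turn (circles); filled symbols passed. Every circle of Cyp8b1 with quercetin and of Akr1d1 with myricetin against the control is filled, and the single filled circle of Cyp7a1, at 2.52, is the value without control replicate 1.

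The rest of the pathway was read from lists of other synthesis enzymes, regulators and transporters. Of 20 other synthesis enzymes tested, 2 rose in the model against the control: the peroxisomal thiolase Acaa1b by 0.94 ± 0.15 (adjusted p = 0.00586) and Acox2, the oxidase that shortens the bile acid side chain, by 0.57 ± 0.14 (adjusted p = 0.0336). With quercetin against the model 2 rose, Hsd17b6 by 1.99 ± 0.46 (adjusted p = 0.0246) and Por, which passes electrons to the microsomal cytochromes P450, by 0.98 ± 0.25 (adjusted p = 0.0311). With myricetin and with kaempferol against the model 0 passed. In the 4 high-fat groups averaged against the control 5 rose and none fell, among them Acaa1b by 0.74 ± 0.13 and Amacr, the racemase of the side chain, by 0.34 ± 0.09 (adjusted p = 0.0212). Quercetin libraries thus held less Cyp8b1, Cyp7b1 and Cyp2c70 and more Por than model libraries.

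Of 20 regulators tested, 1 passed in the model. Hnf4a, the hepatocyte nuclear receptor known to activate Cyp7a1 and Cyp8b1, fell by 0.72 ± 0.15 against the control (adjusted p = 0.0144), from 954 ± 174 to 578 ± 89.1 CPM (SD, n = 3). It fell by 0.79 ± 0.11 in the 4 high-fat groups averaged (adjusted p = 0.000475). With quercetin against the model 1 regulator passed, Klb, the coreceptor for the intestinal hormone Fgf15, which rose by 0.88 ± 0.20 (adjusted p = 0.0133). With myricetin and with kaempferol 0 passed. Klb was nevertheless at 37.1 ± 6.48 CPM with myricetin, beside 37.4 ± 3.47 CPM with quercetin (SD, n = 3). It was at 20.3 ± 4.00 CPM in the model, 18.5 ± 5.95 CPM with kaempferol and 29.3 ± 2.73 CPM in the control. Quercetin against myricetin gave 0 regulators, and against kaempferol Klb was higher by 1.02 ± 0.20 (adjusted p = 0.00774, edgeR). Kaempferol against the control lowered Klb by 0.66 ± 0.20 (adjusted p = 0.036, edgeR). Shp (Nr0b2), given here for its textbook role, passed in no comparison, with 35.7 ± 8.00 CPM in quercetin libraries, 45.9 ± 17.5 in kaempferol libraries and 68.5 ± 9.54 in myricetin libraries, beside 40.8 ± 21.6 in the model and 46.7 ± 5.11 in the control (SD, n = 3).

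Of 12 transporters tested, 0 passed in the model against the control. With quercetin against the model 3 rose: Slco1a4, a sinusoidal uptake carrier, by 1.28 ± 0.26 (adjusted p = 0.0117), and Abcg8 by 1.25 ± 0.30 and Abcg5 by 1.36 ± 0.34, which pair as the canalicular sterol exporter (adjusted p = 0.0242 and 0.0319). Abcg5 was at 252 ± 113 CPM in quercetin libraries, 181 ± 31.1 in myricetin libraries, 109 ± 6.10 in kaempferol libraries, 98.5 ± 40.0 in the model and 49.9 ± 5.99 in the control. Abcg8 and Abcg5 rose by 1.76 ± 0.26 and 1.58 ± 0.30 in the 4 high-fat groups averaged against the control (adjusted p = 0.00145 and 0.00527), among 4 transporters that rose and 0 that fell. With myricetin and kaempferol against the model 0 of the 12 passed. Slc10a2, also a bile acid carrier, stood in a separate list of gut markers. It was at 14.3 ± 2.16 CPM in the model and 14.1 ± 1.33 in the control. With myricetin it was at 4.32 ± 1.37 CPM, with kaempferol at 8.56 ± 1.59 and with quercetin at 13.9 ± 8.01. In that list 1 of 2 genes tested passed with myricetin against the model, and it was lower. Slc51a and Fgf15, fixed in these lists, were not found by symbol among the 16809 genes, so they have no level here.

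Clock genes also changed between these groups. Of 19 clock genes, 13 passed with quercetin against the model (7 higher, 6 lower), 5 with myricetin, 1 with kaempferol and 1 in the model against the control. Against the control, 13 passed with quercetin, 6 with myricetin and 12 with kaempferol (3 higher, 9 lower), and 10 for the 4 high-fat groups averaged (3 higher, 7 lower). Per2 fell by 4.03 ± 0.51 with kaempferol against the control (adjusted p = 0.00125) and by 2.44 ± 0.31 in the high-fat average (adjusted p = 0.000777). Dbp, an output transcription factor of the clock that binds D-boxes, was at 141, 163 and 126 CPM with quercetin and at 2.21, 2.79 and 3.03 CPM in the model. With myricetin it was at 5.55, 19.8 and 25.2 CPM, and it stayed between 1.27 and 2.83 CPM in the control and kaempferol libraries. Quercetin against the model was 5.74 ± 0.47 for Dbp (adjusted p = 8.02e-05), -3.43 ± 0.28 for Arntl (adjusted p = 1.62e-05) and -2.83 ± 0.23 for Cry1 (adjusted p = 1.62e-05). With myricetin against the model, Nr1d1 rose by 4.03 ± 0.40 (adjusted p = 0.00173). The quercetin libraries, lowest in Cyp8b1 and Cyp7b1, were thus the highest in Dbp without overlap, and the part of clock phase in the changes of Cyp8b1, Cyp7b1, Cyp2c70, Akr1d1, Hsd3b7 and Cyp39a1 was not tested.

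**Figure D4:**
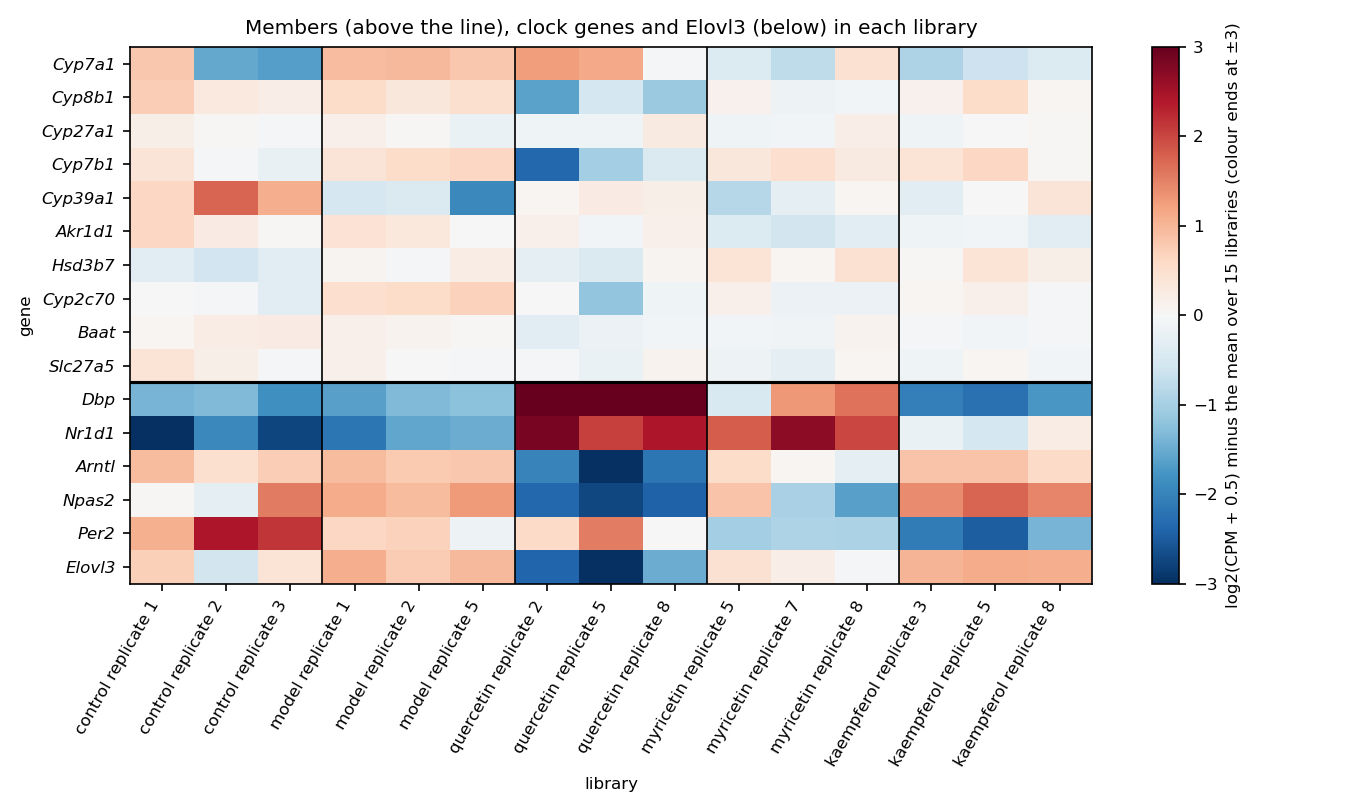
Level of each of the 10 enzymes (above the black line) and of 5 clock genes and Elovl3 (below it) in each of the 15 libraries (x axis), as log2(CPM + 0.5) minus the gene's mean over the libraries, with colours ending at 3 in either direction. Quercetin libraries are blue for Cyp8b1, Cyp7b1, Arntl and Elovl3 and red for Dbp and Nr1d1, and control replicates 2 and 3 are blue for Cyp7a1 while control replicate 1 is red.

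Genes known to be higher in male liver also moved with quercetin. Of 12 tested, 4 fell and 0 rose against the model: Elovl3 at -3.17 ± 0.43 (adjusted p = 0.00164), Selenbp2 at -2.13 ± 0.49 (adjusted p = 0.0233), C6 at -0.84 ± 0.15 (adjusted p = 0.00291) and Serpina1e at -0.84 ± 0.15 (adjusted p = 0.00341). Elovl3, an elongase, was at 90.1, 44.1 and 166 CPM with quercetin and at 997, 787 and 924 CPM in the model. Summed over the 12 genes, quercetin libraries held 16791 to 27738 CPM and the other libraries 25378 to 36596 CPM, so the ranges overlapped. Of 5 female-biased genes tested, Abcd2 rose by 2.35 ± 0.51 with quercetin (adjusted p = 0.0158). Cyp7b1 is itself known as a male-biased gene, and the part of this pattern in its change was not tested.

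Markers of some other cell types rose on the high-fat diets. Of 8 Kupffer cell and macrophage markers, 7 rose in the 4 high-fat groups averaged against the control, as did 7 of 8 endothelial markers, and 0 fell in either list. Of 5 lymphocyte markers 3 rose, of 6 stellate markers 0 passed, and of 6 cholangiocyte markers Sox9 alone passed and fell by 1.22 ± 0.24 (adjusted p = 0.00488), with a median log2 change of -0.65 over that list. The summed macrophage markers were at 94.1 to 165 CPM in control libraries, 205 to 302 in model libraries, 275 to 387 with myricetin, 285 to 317 with quercetin and 360.0 to 863 with kaempferol. Of 10 hepatocyte markers, albumin alone passed in that comparison, where it fell by 0.52 ± 0.13 (adjusted p = 0.0123). Of the general macrophage, endothelial, cholangiocyte, stellate, lymphocyte and hepatocyte markers, 0 passed for a flavonol against the model. Of the zonal hepatocyte markers, 1 of 9 pericentral genes (Slc1a2, by 0.96 ± 0.24, adjusted p = 0.0278) and 1 of 8 periportal genes (Sds, by 2.08 ± 0.38, adjusted p = 0.00834) rose with quercetin against the model, and 0 passed with myricetin or kaempferol. The part of cell composition in the diet changes of Cyp39a1, Akr1d1 and Hsd3b7 was not tested.

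The genes whose log2 levels tracked 3 of the enzymes most closely over the 15 libraries were taken from 9016 genes with a mean of at least 5 CPM, as a description without a test. For Cyp8b1 they were Lonrf3 (Pearson's r = 0.915, Spearman's rho = 0.829), Arl4a (r = 0.902) and Slc17a8 (r = 0.898), and r for Lonrf3 was 0.798 without quercetin replicates 2 and 8, the libraries farthest from the median. For Cyp7b1 they were 3 major urinary protein genes, Mup11 (r = 0.957, rho = 0.886), Mup1 (r = 0.951) and Mup6 (r = 0.951), whose near-identical copies may share reads, and r for Mup11 was 0.696 without quercetin replicates 2 and 5. For Cyp7a1 they were Tex261 (r = 0.845, rho = 0.807), Acad10 (r = 0.842) and Apol7a (r = 0.824), with r for Tex261 at 0.729 without control replicates 2 and 3. These libraries share groups, so likeness here includes differences between groups.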

How the data were processed

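The submitters' processing notes name RSEM 1.3.1, DESeq2 1.4.5, Bowtie2 2.3.4.3 and HISAT2 2.1.0 without saying what each did, and the genome build GRCm38.p6. Per the file headers, each gene of the deposited table has, for every library, an expected count that is not scaled between libraries and a TPM value, beside the authors' log2 fold change and q-value for 4 comparisons. Strandedness is not given in the sources used here. A further 15 columns of per-sample values were not used. Expected counts were not whole in 5.37% of cases and were rounded. Positions and promoters come from RefSeq tables of GRCm38.p6, in which all 10 genes had the same positions as in the table.

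Counts were fitted over the whole table with edgeR 4.0.16 in R 4.3.3 (filterByExpr, TMM, robust quasi-likelihood), with 1 mean per group over all 15 libraries and 10 residual degrees of freedom. Tests were 2-sided, with Benjamini-Hochberg adjustment over 12658 genes. The SE was derived from the log2 change and its F statistic (their ratio, with the root of F), which makes it and the 95% intervals approximate. The script was tested on simulated data. No 2 libraries held identical values. Alternatives were DESeq2 1.42.0, other size factors, no filter, a filter of 5 CPM in 3 libraries, a replicate block, a fit to only the groups compared, and leaving out each library. Fitted changes are printed for an enzyme where it passed or the log2 change was at least 0.5 in size. Other gene lists name at most the 4 smallest p-values among genes that passed. Albumin, Shp, Slc10a2, the markers' directions and the levels of Per2, Clock, Cry1 and Npas2 are given as levels or counts. The 10 genes and the gene lists were chosen with earlier results of these data known. Some genes of these lists are not reported here.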

Additional observations from a re-analysis of the deposited data

How the results depend on the processing

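None of the 38 printed pairs of enzyme and comparison changed sign under the alternatives run; pairs with smaller changes, such as Cyp7a1 with quercetin against the model, were not followed. The number of the 10 enzymes that passed moved by over 1.5 times in these cases. With DESeq2 it was 3 for the model against the control, 3 for quercetin against myricetin, 5 for the 4 high-fat groups averaged against the control and 4 for any difference among the high-fat groups. In the fit to only the groups compared it was 2 for the model against the control, 1 for quercetin, 2 for myricetin and 1 for kaempferol against the model, 1 for quercetin and 1 for kaempferol against the control, and 0 for quercetin against kaempferol. With no filter on low counts it was 1 for quercetin against kaempferol. The number of genes passing over the whole table moved as well. For the model against the control it went from 565 to 1000 with DESeq2 and to 818 in the fit to only the groups compared. For quercetin against kaempferol it went from 612 to 251 in the fit to only those groups. The cause of these differences was not tested. On deposited TPM in place of CPM, the order of the group means was the same for 4 of the 10 genes.

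Leaving out each library in turn gave 0 to 2 for the model against the control, 1 to 3 for quercetin, 0 to 1 for myricetin and 0 to 0 for kaempferol against the model. Against the control it gave 1 to 3 for quercetin, 1 to 3 for myricetin, 0 to 2 for kaempferol and 0 to 4 for the high-fat average. Between flavonols it gave 0 to 2 for quercetin against myricetin, 1 to 3 for quercetin against kaempferol and 0 to 0 for myricetin against kaempferol. The tests for any difference gave 1 to 3 among the high-fat groups and 2 to 6 over all 5 groups. The number of genes passing over the whole table also moved with the library left out. For the model against the control it was 82 without control replicate 2 and 919 without control replicate 1, beside 565 with all libraries.

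Replicate numbers in the titles showed no sign of pairing the samples. Of 14 pairs with the same number in different groups, 0 had a correlation of deviations from the group means over 0.1 (range -0.24 to 0.10). Of 76 pairs with different numbers 15 did. Such correlations over all genes cannot exclude a weak pairing. With a replicate block, which leaves 5 residual degrees of freedom, the number that passed was 0 for the model, myricetin and kaempferol against the control, 0 for myricetin against the model, 0 for the high-fat average, and 1 for quercetin against the model, the control and kaempferol and in both tests for any difference. With this block the genes passing over the whole table fell from 565 to 43 for the model against the control. They fell from 1164 to 2 for myricetin and from 1697 to 298 for kaempferol against the control. For myricetin against the model they fell from 50 to 5, and for the high-fat average from 2062 to 260. For quercetin they numbered 236 against the model, 201 against the control and 185 against kaempferol. The tests for any difference had 131 among the high-fat groups and 217 over all 5 groups. The lowest expected count of an enzyme in a library was 79, and precision is limited by 3 libraries per group.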
